A study of Mus musculus with 29 samples.

Results

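Aged cardiac fibroblasts were compared on a stiff and on a soft gel that both carried matrix of young heart. The 6 libraries were chosen by their titles, 3 of aged cells on StiffY and 3 of aged cells on SoftY, out of 29 in the series, and every fold is StiffY over SoftY. Both groups were primary mouse cardiac fibroblasts from aged mice kept for 48 h on DECIPHER substrates, which hold heart extracellular matrix (ECM) inside a hydrogel. They differed by label only in the stiffness of that gel. The labels give no strain, age in numbers, gel modulus or cell passage. The series also held young cells on the same substrates, both cell ages on soft and stiff gels with matrix of aged heart (SoftA and StiffA), and fresh cells. The titles number biological replicates but tie none to an animal, and a p-value here therefore reflects the spread among the libraries alone. The letter of the library name follows the substrate (E for SoftY, F for StiffY), so a step of preparation shared by a letter cannot be told apart from stiffness.

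Fibroblasts sense a stiff substrate through integrins, actomyosin tension and the factors YAP, TAZ and MRTF, and stiff substrates are known for driving them towards contractile myofibroblasts. Interferons are secreted antiviral proteins. They signal through receptors, the kinases JAK1 and TYK2 and transcription factors such as STAT2 and IRF9 to a set of interferon-stimulated genes, many of which also keep a low level without infection.

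Few transcripts differed between the gels beyond the spread of the libraries in aged cells, and all of them were lower on the stiff gel. Of 12841 genes tested, 0 rose and 7 fell (0.0545% called) at an adjusted p under 0.05 in edgeR's quasi-likelihood test with Benjamini-Hochberg adjustment over all genes, which is what "rose", "fell" and "called" mean throughout. 6 of the 7 were interferon-stimulated genes: Ifit1, Ifit3, Ifit3b, Cmpk2, Iigp1 and Igtp. The other was the chemokine gene Ccl2. At an unadjusted p under 0.05 there were 471 genes (3.67%), and DESeq2 called 0 higher and 10 lower. The median log2 fold change over all genes was -0.0016. The groups did not overlap at 638 genes on the lower side (4.97%) and at 639 on the higher side (4.98%).

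The intervals held most expressed genes to within 2-fold, and smaller changes could go uncalled. Of 9377 genes with a mean of at least 10 CPM (counts scaled to a common library total, with TMM factors), 8822 (94.1%) had a 95% interval of the difference within 2-fold either way, and 5708 (60.9%) within 1.5-fold. The median SE of the 9377 genes was 0.186 on the log2 scale. Totals were 1804739 to 2383327 counts in the 6 libraries and 1192668 to 3275089 over all 29, and 10 CPM in the 6 stood for 18 to 24 counts. The labelled cell type was checked on 10 fibroblast markers (Col1a1, Col1a2, Col3a1, Dcn, Ddr2, Lum, Pdgfra, Tcf21, Thy1 and Vim). All 10 were present in each of the 6 libraries and none was called. In bulk RNA, fewer cells of a type and less RNA per cell cannot be told apart.

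**Figure D1:**
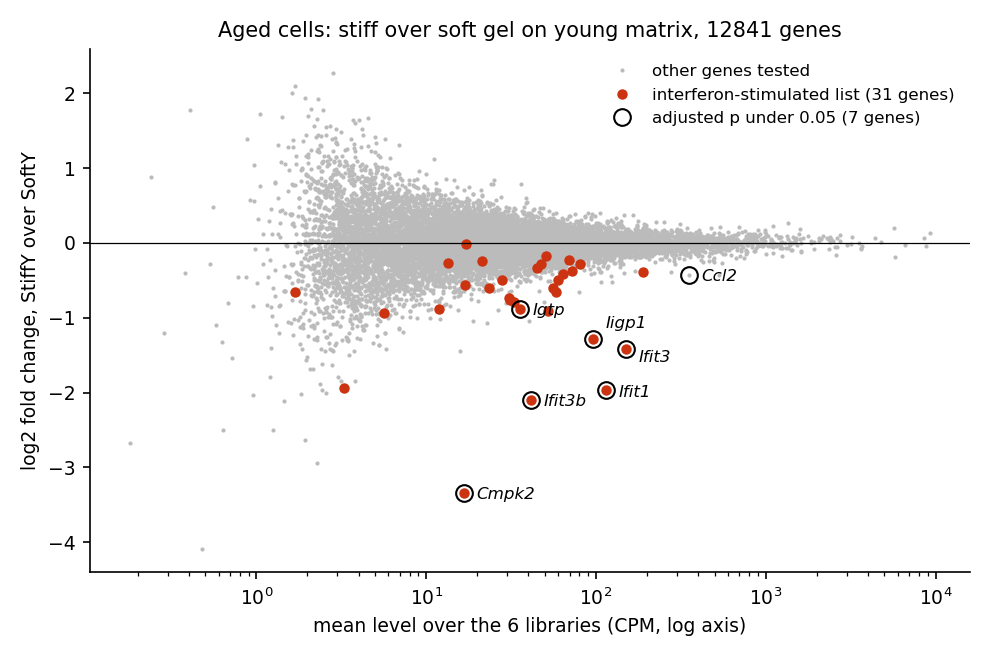
Each point is 1 of 12841 genes tested, with its mean level over the 6 libraries of aged cells (CPM, log axis) against its log2 fold change, StiffY over SoftY. Red points are the 31 interferon-stimulated genes tested, all below 0, and circles mark the 7 genes called, all lower on the stiff gel.

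The promoters of 5 of the 6 interferon-stimulated genes that fell are shown, because these genes moved together. Each sequence is the 250 bases before the annotated start, on the + strand of build GRCm38.p6, from RefSeq. Capitals mark GAAANNGAAA or its reverse complement TTTCNNTTTC, the core of the interferon-stimulated response element, searched on both strands. The windows are chr19:34640639-34640888 for Ifit1, chr19:34583279-34583528 for Ifit3, chr19:34607707-34607956 for Ifit3b, chr12:26468965-26469214 for Cmpk2 and chr11:58199306-58199555 for Igtp.
Ifit1: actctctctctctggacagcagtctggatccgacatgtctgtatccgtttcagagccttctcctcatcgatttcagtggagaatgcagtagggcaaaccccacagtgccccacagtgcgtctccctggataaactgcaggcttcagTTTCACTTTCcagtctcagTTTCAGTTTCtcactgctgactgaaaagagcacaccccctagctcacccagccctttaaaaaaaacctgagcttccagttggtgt
Ifit3: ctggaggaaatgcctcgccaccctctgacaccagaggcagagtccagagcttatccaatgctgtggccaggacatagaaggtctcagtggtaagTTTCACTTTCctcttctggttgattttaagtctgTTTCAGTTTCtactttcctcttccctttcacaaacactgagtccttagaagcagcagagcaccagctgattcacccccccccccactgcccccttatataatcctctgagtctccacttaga
Ifit3b: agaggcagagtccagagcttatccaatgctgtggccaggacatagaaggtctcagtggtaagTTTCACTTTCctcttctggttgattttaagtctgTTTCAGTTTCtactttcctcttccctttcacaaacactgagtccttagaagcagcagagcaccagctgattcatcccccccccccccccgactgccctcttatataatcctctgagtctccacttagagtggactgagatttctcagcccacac
Cmpk2: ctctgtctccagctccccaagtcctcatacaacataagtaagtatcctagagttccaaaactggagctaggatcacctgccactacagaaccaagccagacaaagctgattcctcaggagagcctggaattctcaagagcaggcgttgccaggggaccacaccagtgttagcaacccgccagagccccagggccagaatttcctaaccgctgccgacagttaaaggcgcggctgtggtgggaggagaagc
Igtp: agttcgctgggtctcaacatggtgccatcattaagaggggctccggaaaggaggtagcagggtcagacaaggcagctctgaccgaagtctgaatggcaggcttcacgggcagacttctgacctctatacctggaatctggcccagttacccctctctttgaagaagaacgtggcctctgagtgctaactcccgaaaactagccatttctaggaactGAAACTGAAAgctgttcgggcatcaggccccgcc
Ifit1, Ifit3 and Ifit3b each held 2 matches in capitals, Igtp held 1, and Cmpk2 held 0 in this window. The matches began 104 and 85 bases before the start in Ifit1, 156 and 122 in Ifit3, 188 and 154 in Ifit3b, and 34 in Igtp. The Ifit3 and Ifit3b windows shared a run of 169 identical bases, which shows how near the pair are as copies. The motif was found in 2.98% of 32851 RefSeq promoters, in 3.26% of the 9121 genes tested that have one in the table, and in 12 of the 24 interferon-stimulated genes that do. A match is a description of the letters and not a site of binding. Iigp1 and Ccl2 are named only.

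The IFIT genes lie in a cluster on chromosome 19 and encode proteins that bind foreign RNA. Ifit1 (ENSMUSG00000034459, chr19:34618271-34627410 in mm39) was counted at 128, 188 and 232 CPM in the 3 SoftY libraries and at 44.6, 49.6 and 45.3 CPM in the 3 StiffY libraries. The SoftY libraries spread widely and the StiffY libraries hardly at all, and the lowest SoftY value was still well above every StiffY value. The gene fell by 1.97 ± 0.20 on the log2 scale (SE, adjusted p = 5.46e-06, edgeR).

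Ifit3 (ENSMUSG00000074896, chr19:34560931-34566132) stood at 189, 200 and 269 CPM on SoftY and at 82.3, 80.3 and 83.9 CPM on StiffY. It fell by 1.42 ± 0.16 on the log2 scale (adjusted p = 8.81e-06, edgeR), again with no overlap of the groups. Its near copy Ifit3b (ENSMUSG00000062488, chr19:34585370-34590802) had 58.2, 69.1 and 75.5 CPM on SoftY against 19.7, 17.0 and 11 CPM on StiffY. The change of Ifit3b was -2.09 ± 0.22 (adjusted p = 5.46e-06, edgeR). How reads shared by this pair were assigned, and whether strand was used, is not given in the sources used here, so their split is uncertain. Ifit2, their neighbour in the same cluster, was not called, at -0.22 with a 95% interval from -0.55 to 0.10, and its groups overlapped.

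Cmpk2 (ENSMUSG00000020638, chr12:26519203-26529837), which encodes a mitochondrial nucleotide kinase induced by interferon, had the largest fall among the 7. Its level was 21.8, 25.6 and 43.8 CPM on SoftY and 4.78, 2.83 and 1.43 CPM on StiffY. The StiffY values rested on 9, 6 and 3 counts. Every SoftY library was above every StiffY library, and the log2 fold change was -3.34 ± 0.39 (adjusted p = 2.13e-05, edgeR). Rsad2, the antiviral gene next to Cmpk2 on chromosome 12, pointed the same way at -1.94, but its interval ran from -3.20 to -0.68 and its adjusted p was 0.904 at a mean of 5.27 CPM on SoftY and 1.32 CPM on StiffY.

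Iigp1 and Igtp encode immunity-related GTPases, which act against pathogens that live in vacuoles. Iigp1 was counted at 119, 133 and 155 CPM on SoftY and at 77.0, 49.1 and 42.4 CPM on StiffY. It fell by 1.28 ± 0.22 on the log2 scale (adjusted p = 0.0104, edgeR), and the call was lost without SoftY library 3, StiffY library 2 or StiffY library 3 (adjusted p = 0.129, 0.175 and 0.158). Igtp (ENSMUSG00000078853, chr11:58090382-58098418) had 47.1, 39.7 and 51.2 CPM on SoftY and 26.6, 22.7 and 26.2 CPM on StiffY. The groups did not overlap and the change was -0.88 ± 0.16 (adjusted p = 0.0276, edgeR). The call of Igtp was lost when any of the 6 libraries other than SoftY library 2 was left out (highest adjusted p = 0.412).

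Ccl2 (ENSMUSG00000035385, chr11:81926397-81928280), the chemokine that draws monocytes, was the mildest of the 7. It was counted at 410, 412 and 397 CPM on SoftY and at 322, 275 and 310 CPM on StiffY, values that were tight within both groups and apart between them. It fell by 0.43 ± 0.08 on the log2 scale (adjusted p = 0.0256, edgeR). Its call was lost when any of the 6 libraries other than StiffY library 1 was left out (highest adjusted p = 0.454), and also, as for Igtp, in the fits on the 6 libraries alone (adjusted p = 0.0963 for both) and on the 12 libraries of cultured aged cells (adjusted p = 0.0741 for Ccl2 and 0.0515 for Igtp). Ccl2 was the single gene called among 23 tested cytokines and NF-kB targets, a list with a median of -0.09. The share called over all genes was 0.0545%. The cytokine gene Il6 in that list was not called, at 36.8, 38.6 and 40.9 CPM on SoftY, 32.9, 28.8 and 34.3 CPM on StiffY, and a difference of -0.28 (95% interval -0.63 to 0.08).

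**Figure D2:**
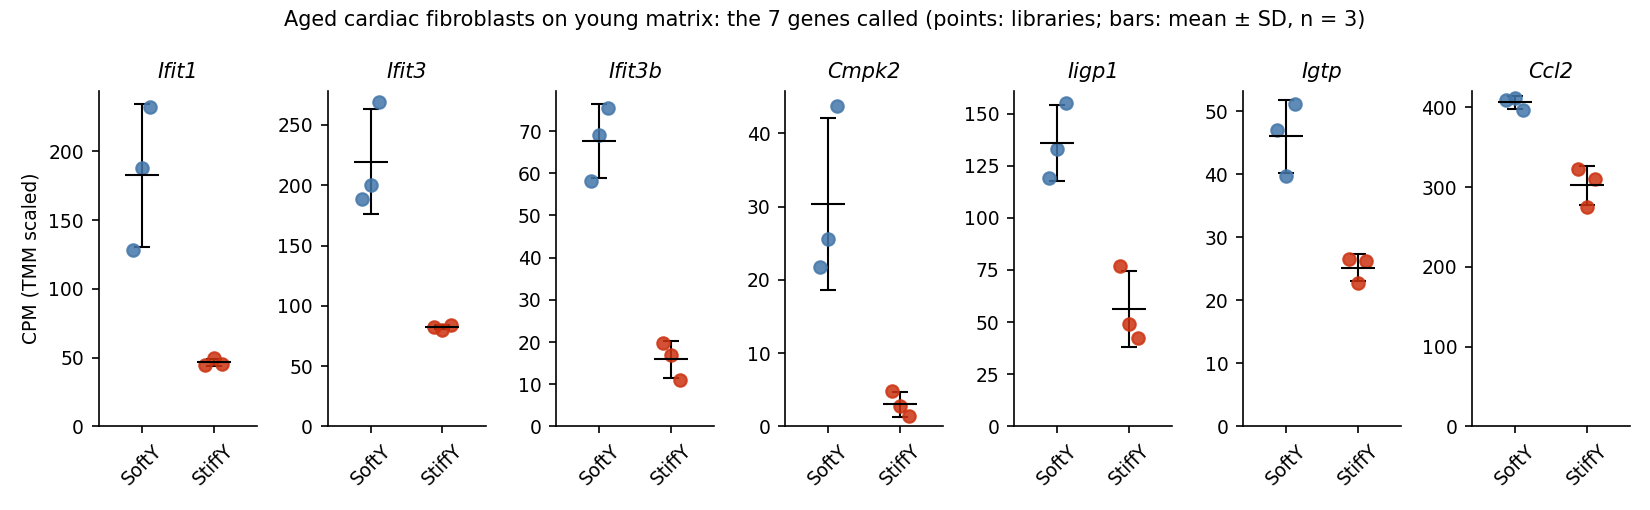
Levels (CPM scaled by TMM, axes from 0) of the 7 genes called, in the 3 SoftY and 3 StiffY libraries of aged cells, with bars at the mean ± SD (n = 3). The groups do not overlap in any panel, and the log2 fold change is largest for Cmpk2 (-3.34) and smallest for Ccl2 (-0.43).

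The interferon pathway was then followed from its ligands to its targets, with lists of ligands, receptors, transducers and sensors chosen after the values above had been seen. Transcripts of the ligands were not detectable at this depth in nearly all cases. Of 21 interferon genes in the table, among them Ifnb1, Ifng and 14 named Ifna or Ifnab, 20 had 0 counts in all 6 libraries, which allows a level of up to 0.241 CPM over the 6 together. Ifnz had 3 and 2 counts in 2 StiffY libraries and 0 in the other 4. These limits cover counting error only.

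The 4 receptor genes of type I and type II interferon were present and their groups overlapped, while Ifnlr1, a receptor chain for type III interferon, had 5 counts over the 6 libraries and was not tested. Ifnar1, a chain of the type I receptor, was at 158, 163 and 171 CPM on SoftY and at 166, 156 and 174 CPM on StiffY, with a log2 difference of 0.01 (95% interval -0.21 to 0.23). Ifnar2, its partner, differed by -0.15 (-0.43 to 0.13). Of the type II receptor, Ifngr1 differed by 0.07 (-0.13 to 0.27) and Ifngr2 by 0.16 (-0.11 to 0.43). The kinases JAK1 and TYK2 sit on the type I receptor. Their genes had intervals of similar width, at 0.01 for Jak1 (-0.14 to 0.17) and at 0.10 for Tyk2 (-0.21 to 0.41). None of these 6 genes was called, and each interval lies within 1.5-fold of no difference.

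The transcription factor genes Stat2, Irf9 and Irf7, which are themselves interferon-stimulated, had values below 0 and did not pass the test. Stat2 had 186, 232 and 222 CPM on SoftY and 180, 169 and 142 CPM on StiffY. These groups did not overlap and the log2 difference was -0.38 (95% interval -0.62 to -0.14, adjusted p = 0.875, edgeR). Irf9 differed by -0.33 (-0.67 to 0.01). Irf7, the factor that amplifies the response, was at 61.6, 65.8 and 75.5 CPM on SoftY and at 52.6, 44.4 and 37.2 CPM on StiffY, a difference of -0.60 (-0.94 to -0.27, adjusted p = 0.641, edgeR). The feedback inhibitors Socs1 and Socs3 stood at 0.22 (-0.64 to 1.08) and 0.07 (-0.24 to 0.38), and their groups overlapped.

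Sensors of foreign nucleic acid and their adaptors held 9 tested genes, none called, with a median of -0.09. Tlr3, the endosomal receptor for double-stranded RNA, was at 26.5, 26.1 and 25.6 CPM on SoftY and at 18.1, 21.2 and 13.3 CPM on StiffY, a log2 difference of -0.57 (95% interval -1.01 to -0.13) that did not pass. Ddx58, which encodes RIG-I, differed by -0.37 (-0.60 to -0.14) and Ifih1, which encodes MDA5, by -0.41 (-0.76 to -0.06). Both Ddx58 and Ifih1 are also members of the interferon-stimulated list below, so their values are not separate from it. The adaptors Sting1 and Mavs had small differences, 0.05 (-0.22 to 0.32) and -0.01 (-0.35 to 0.33), and overlapping groups.

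Of the interferon-stimulated list, 31 of 33 genes were tested, of which 6 fell, 0 rose and 25 did not pass. Over all genes tested, 0.0545% fell and 0% rose. Its median log2 fold change was -0.60, against -0.0016 over all genes. All 31 estimates were below 0, from -3.34 for Cmpk2 to -0.02 for Trim30a. The groups did not overlap at 19 of the 31 on the lower side and at 0 on the higher side, beside 4.97% and 4.98% of all genes tested. Among members that did not pass, Rtp4, a chaperone of cell surface receptors, was at 59.1, 85.4 and 60.7 CPM on SoftY and 46.2, 33.5 and 29.5 CPM on StiffY (-0.90, adjusted p = 0.148, edgeR). The ubiquitin-like modifier Isg15 had 29.1, 46.8 and 39.2 CPM against 27.6, 19.8 and 21.4 CPM, a difference of -0.73 (95% interval -1.26 to -0.21). Usp18, the protease that removes Isg15, differed by -0.79 (-1.30 to -0.28), and the oligoadenylate synthetase genes Oas1a and Oas2 by -0.60 (-0.99 to -0.21) and -0.88 (-1.43 to -0.33).

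**Figure D3:**
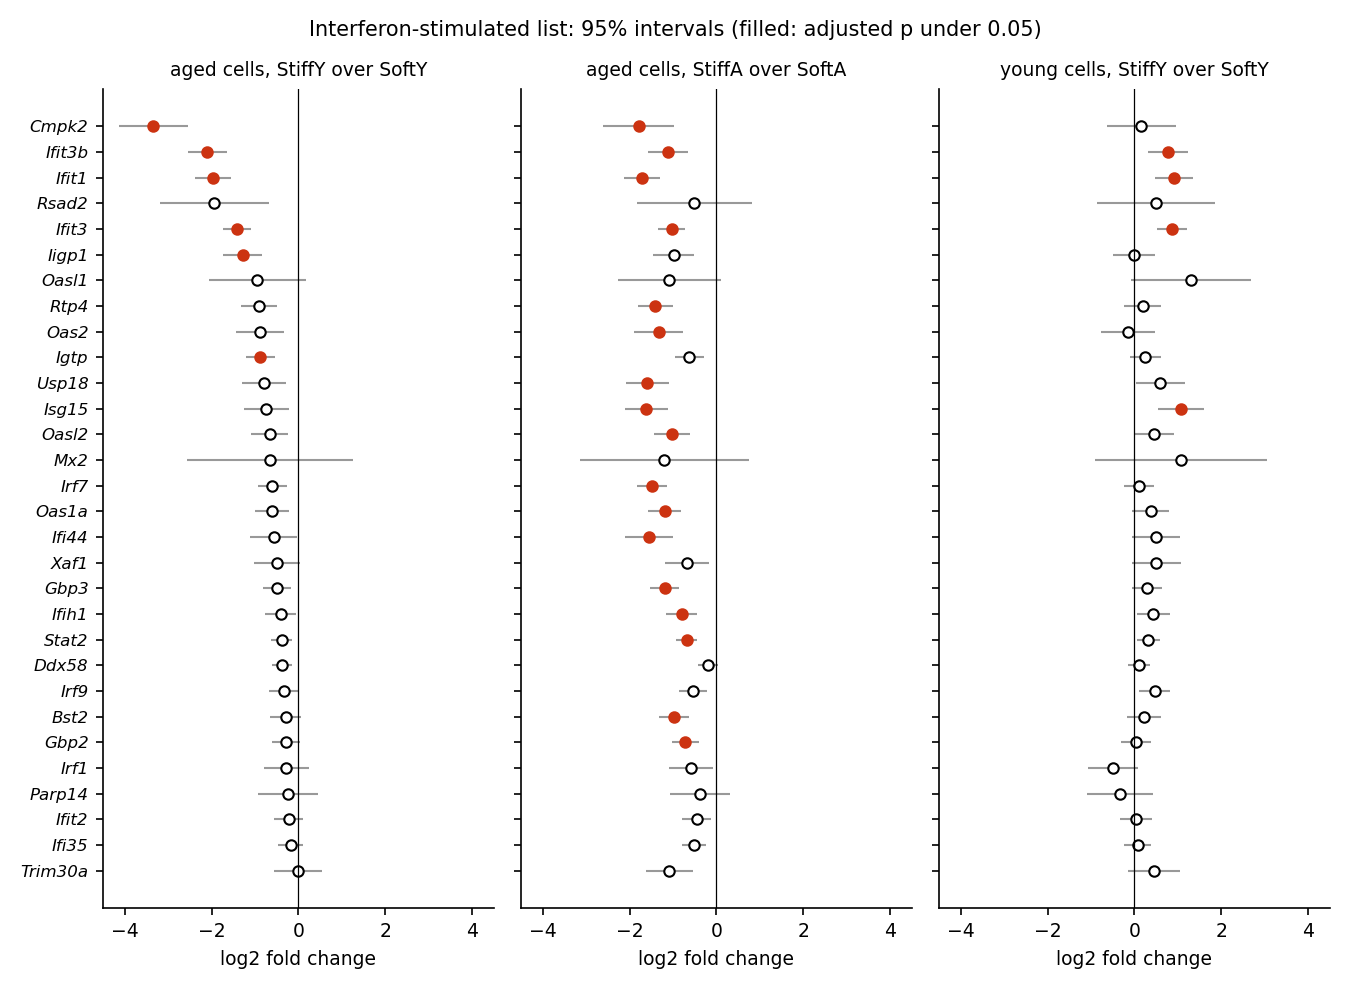
Log2 fold changes with 95% intervals of 30 of the 31 interferon-stimulated genes tested, for aged cells on young matrix (left), aged cells on aged matrix (middle) and young cells on young matrix (right), and filled points mark an adjusted p under 0.05. All 30 lie below 0 in the left panel with 6 filled, 17 are filled below 0 in the middle, and 4 are filled above 0 on the right.

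Markers of other cell types were also summed, and in each list the SoftY and StiffY ranges overlapped. The summed level of 18 macrophage and myeloid markers was 30.4 to 39.2 CPM on SoftY and 34.3 to 44.9 CPM on StiffY. Only 4 of them had enough counts to test, 0 were called, and Aif1, Cd163 and Fcgr1 were at 0 in all 6 libraries. Neutrophil markers summed to 5.37 to 8.56 CPM on SoftY and 6.61 to 15.9 CPM on StiffY, with 5 of 8 at 0, and the 12 lymphocyte markers to at most 0.856 and 1.06 CPM, with 10 at 0. Endothelial markers ran from 126 to 150 CPM on SoftY and from 142 to 163 CPM on StiffY, with 12 of 16 tested and 0 called. Pericyte and smooth muscle markers were at 163 to 191 and 168 to 181 CPM, cardiomyocyte markers at 23.4 to 35.9 and 22.3 to 28.1 CPM, Schwann cell markers at 399 to 428 and 365 to 462 CPM, and epicardial markers at 224 to 243 and 204 to 243 CPM. None of these lists had a called member, and their part in the interferon result was not tested further. Of the 16 cardiomyocyte markers, 9 were at 0 in all 6 libraries, among them Myh6 and Actc1. Myl4 of that list had a mean of 18.8 CPM on SoftY and 17.1 CPM on StiffY. Of the 10 Schwann cell markers, 3 were at 0 in all 6 libraries, among them Sox10. Prnp of that list had a mean of 326 CPM on SoftY and 337 CPM on StiffY.

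The genes that sense or answer tension were not called in aged cells. The 7 lists of mechanosensing and contractile genes held 124 tested genes, of which 0 were called, beside 0.0545% of all genes. Of the 124, 51 were above and 73 below 0, with a median of -0.03 and a smallest adjusted p of 0.875 (edgeR). Of the 112 at 10 CPM or more, 107 had an interval within 2-fold. Acta2, the smooth muscle actin of myofibroblasts, was at 695, 710 and 676 CPM on SoftY and at 650, 739 and 619 CPM on StiffY. The groups overlapped and the log2 difference was -0.05 (95% interval -0.31 to 0.20). In young cells on the same substrates 28 of the 124 were called, beside 4.56% of all genes. The test of the difference between cell ages called 4 of the 124, beside 1.32% of all genes. A call in young cells alone therefore does not show a difference from aged cells. Median interactions (young minus aged) of the 7 lists ran from 0.07 (integrins) to 0.36 (nuclear lamina and LINC complex), against 0.01 over all genes.

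The YAP and TAZ targets Ccn1 and Ccn2 did not pass either. Ccn1, a secreted matricellular protein, had 1153, 1262 and 1233 CPM on SoftY and 1179, 1266 and 1153 CPM on StiffY, a difference of -0.02 (95% interval -0.20 to 0.16). Ccn2, known as connective tissue growth factor, differed by -0.21 (-0.53 to 0.12). Both pairs of groups overlapped. Yap1 and Wwtr1, which encode YAP and TAZ, differed by 0.23 (-0.31 to 0.77) and -0.30 (-0.63 to 0.02), and the stretch-activated channel Piezo1 by 0.16 (-0.35 to 0.68). For the integrins Itgb1 and Itga5 the differences were -0.03 (-0.44 to 0.38) and -0.00 (-0.28 to 0.28), and for the lamin gene Lmna 0.02 (-0.13 to 0.17). Tagln and Tgfb1 had too few counts to be tested. Whether this reflects low expression or the way reads were assigned to genes was not tested.

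Matrix genes were highly expressed and none was called. Their 7 lists held 133 tested genes with 0 called, beside 0.0545% of all genes. Of the 133, 78 were above and 55 below 0, with a median of 0.04. Of the 122 at 10 CPM or more, 120 had an interval within 2-fold. Col1a1, the main fibrillar collagen chain, was at 8951, 8565 and 8946 CPM on SoftY and at 9894, 10213 and 8946 CPM on StiffY, a log2 difference of 0.13 (95% interval -0.00 to 0.27). Fibronectin (Fn1) had 5512, 4898 and 5556 CPM on SoftY and 6239, 6191 and 5916 CPM on StiffY. Its groups did not overlap, yet the difference of 0.20 (0.03 to 0.37) did not pass over all genes. Lox, which crosslinks collagen, stood in the same way at 1196, 1172 and 1304 CPM against 1458, 1620 and 1348 CPM, or 0.27 (0.00 to 0.53), and did not pass. Col3a1 and Postn differed by 0.01 (-0.14 to 0.16) and -0.01 (-0.43 to 0.42). In young cells 37 of the 133 were called, beside 4.56% of all genes. The test of the difference between cell ages called 16 of the 133, beside 1.32% of all genes.

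Of the 58 lists examined, 56 had no called member in aged cells on young matrix, and 54 of these had a gene tested. Among the 48 with at least 5 tested genes, medians ran from -0.15 (chondro-osteogenic genes) to 0.23 (mitosis genes). Of 34 mitosis genes, 28 were above 0 and 6 below, and the groups did not overlap at 10 on the higher side and 1 on the lower, beside 4.98% and 4.97% of all genes. Anln, which acts in cell division, was at 128 ± 18.2 CPM (SD, n = 3) on SoftY and 166 ± 5.15 CPM on StiffY, a log2 difference of 0.38 (95% interval 0.13 to 0.62), not called. The proliferation marker Mki67 had overlapping groups and differed by 0.06 (-0.28 to 0.41). The arrest gene Cdkn1a differed by 0.01 (-0.21 to 0.22), and the fibroblast receptor gene Pdgfra by -0.03 (-0.21 to 0.15). A difference that misses the threshold is not shown to be absent, and the intervals give the sizes these libraries allow.

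**Figure D4:**
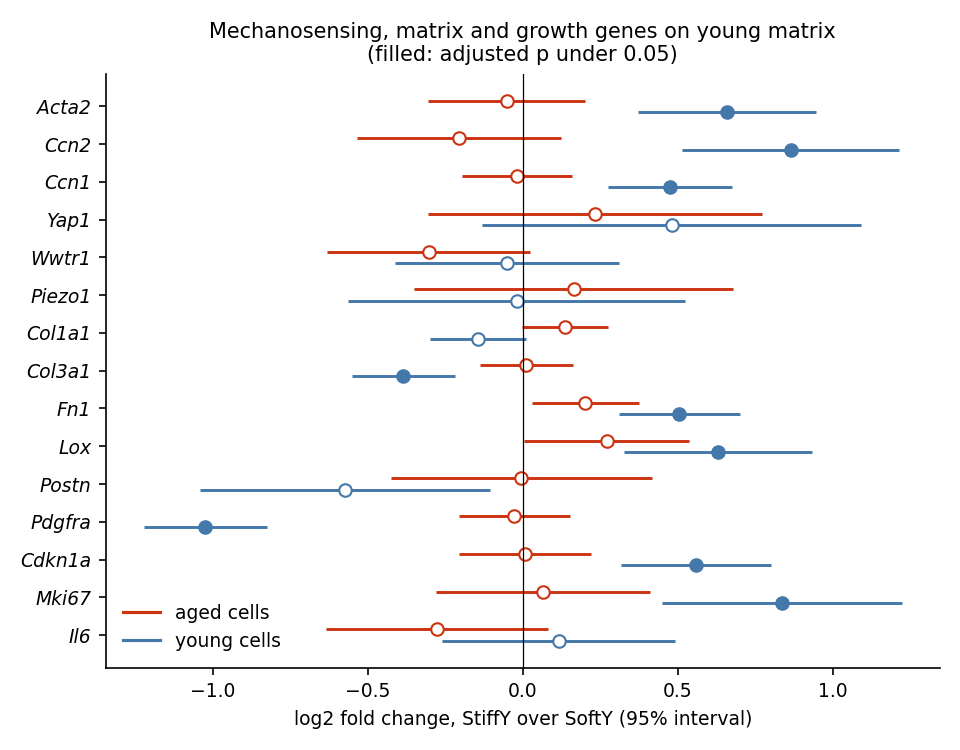
Log2 fold changes with 95% intervals, StiffY over SoftY, of 15 genes for mechanosensing, matrix, growth and inflammation in aged (red) and young cells (blue), with filled points at an adjusted p under 0.05. No red point is filled, and Acta2, Ccn2, Ccn1, Fn1, Lox, Cdkn1a and Mki67 are filled above 0 and Col3a1 and Pdgfra below 0 in young cells.

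Whether stiffness acted alike on the other matrix was addressed with aged cells on StiffA and SoftA, which share no library with the comparison above. All 7 called genes also had a negative log2 fold change there, beside 48.4% of all genes with the same sign in both comparisons. The changes on aged matrix were -1.71 for Ifit1, -1.03 for Ifit3, -1.11 for Ifit3b and -1.79 for Cmpk2, each called. Iigp1 stood at -0.98 (adjusted p = 0.0641, edgeR), Igtp at -0.62 (adjusted p = 0.124, edgeR) and Ccl2 at -0.01 (95% interval -0.18 to 0.15), none called. Over the whole interferon-stimulated list, 17 of 31 fell and 0 rose on aged matrix, with a median of -1.03, where 0.35% of all genes fell and 0.0156% rose.

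The difference between the matrices was tested as an interaction. 3 of 12841 genes were called (0.0234%), all negative, and none was in the interferon-stimulated list. Estimates in that list pointed both ways, with a median of -0.32. Ifit1 had an interaction of 0.26 (95% interval -0.33 to 0.85) and Irf7 of -0.88 (-1.36 to -0.40, adjusted p = 0.479, edgeR). Cmpk2 stood at 1.55 (0.32 to 2.78, adjusted p = 0.835, edgeR) and Ifit3b at 0.99 (0.33 to 1.64, adjusted p = 0.666, edgeR). No member of the list passed, which does not show that the matrices act alike. The 3 genes were Htra3, a serine protease of the matrix (-1.31 ± 0.21), Fgl2, a secreted fibrinogen-like protein (-1.03 ± 0.16), and Apoe, the lipid carrier (-0.86 ± 0.13), each at an adjusted p of 0.00455 (edgeR). On young matrix Htra3 was at 71.0, 81.0 and 93.7 CPM in SoftY and at 99.9, 121 and 93.4 CPM in StiffY, with overlapping groups and a difference of 0.35. Fgl2 and Apoe differed by 0.21 and 0.07 there. On aged matrix these 3 fell by 0.96, 0.82 and 0.79 with stiffness.

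Young cells answered the same pair of substrates with more called genes. With stiffness 272 genes rose (2.12%) and 314 fell (2.45%), or 4.56% in all, from 2 SoftY and 3 StiffY libraries. The interaction of stiffness with cell age, young minus aged, called 169 genes (1.32%), 43 positive (0.335%) and 126 negative (0.981%). It shares the 6 aged libraries with the first comparison, so the values are set side by side. With stiffness, Ifit1 had a log2 fold change of 0.91 in young cells against -1.97 in aged cells, an interaction of 2.88 ± 0.30 (adjusted p = 6.62e-07, edgeR). For Ifit3 the changes were 0.86 and -1.42 (interaction 2.28 ± 0.23, adjusted p = 5.11e-07, edgeR), and for Ifit3b 0.77 and -2.09 (2.87 ± 0.32, adjusted p = 1.71e-06, edgeR).

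In young cells these 3 IFIT genes rose, the opposite direction to aged cells. Isg15 rose by 1.07 in young cells and stood at -0.73 in aged cells, with an interaction of 1.81 ± 0.36 (adjusted p = 0.00681, edgeR, and 0.0592 without young SoftY library 1). Cmpk2 was at 0.16 in young cells (95% interval -0.64 to 0.96) and had an interaction of 3.50 ± 0.57 (adjusted p = 0.000567, edgeR). Iigp1 stood at -0.01 in young cells, and its interaction of 1.27 ± 0.32 (adjusted p = 0.0469, edgeR) was lost in 9 of 11 fits that left out 1 library, with an adjusted p of up to 0.193. Igtp had an interaction of 1.13 ± 0.24 (adjusted p = 0.0111, edgeR). Ccl2 went further down in young cells, at -1.21 against -0.43, an interaction of -0.78 ± 0.11 (adjusted p = 0.000193, edgeR). Over the interferon-stimulated list 8 of 31 interactions were positive calls and 0 negative, beside 0.335% and 0.981% of all genes.

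The summed level of the interferon-stimulated list, scaled over all 29 libraries, shows where the aged StiffY cells stand. Aged cells on SoftY were at 1658, 2025 and 2160 CPM and on StiffY at 1276, 1148 and 1034 CPM. Aged cells on StiffA were at 994 to 1047 CPM and young cells on SoftA at 868 to 1060 CPM, and of the 3 aged StiffY libraries 1 lay within these ranges and the other two above them. Aged cells on SoftA were at 1746 to 2176 CPM, which overlaps aged cells on SoftY. Young cells ran the other way on young matrix, at 1479 and 1588 CPM on SoftY and 1747 to 2172 CPM on StiffY. Fresh cells lay above every cultured library, at 3735 to 3827 CPM when young and 4805 to 4835 CPM when aged.

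**Figure D5:**
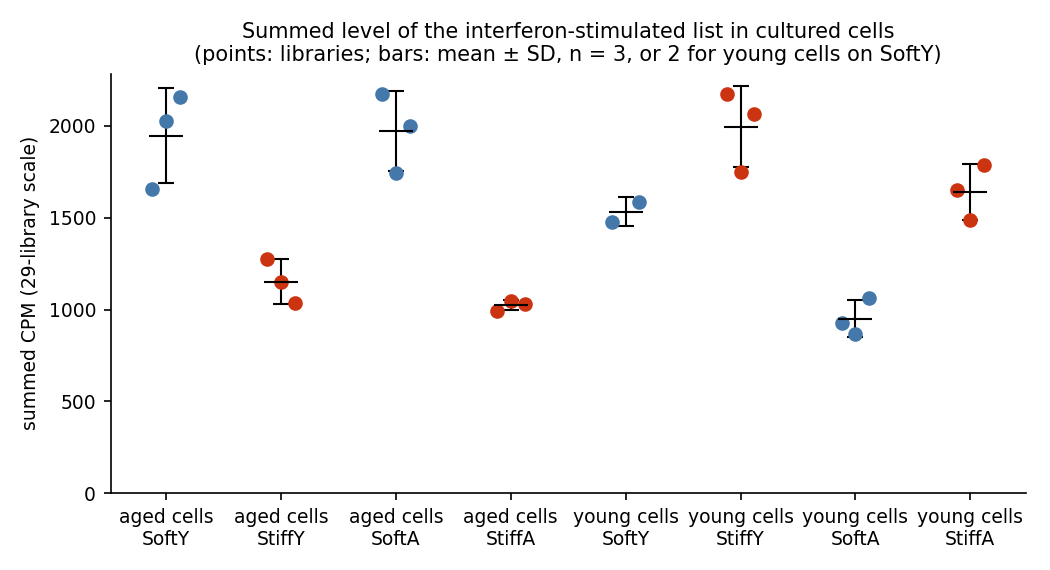
Summed level of the interferon-stimulated list (CPM on the scale of all 29 libraries, axis from 0) in each of the 23 cultured libraries, by cell age and substrate, with soft gels in blue and stiff gels in red and bars at the mean ± SD. Aged cells sit lower on stiff than on soft gels with either matrix, and young cells sit higher.

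The 6 genes with the largest negative interactions with cell age fell in young cells and were not called in aged cells. Enpp2, which makes lysophosphatidic acid, was at 42.4, 40.2 and 59.4 CPM in aged cells on SoftY and at 43.6, 44.4 and 61.0 CPM on StiffY. Its aged difference was 0.06 (95% interval -0.30 to 0.42), its young change -4.48, and the interaction -4.54 ± 0.27 (adjusted p = 5.19e-11, edgeR). The basement membrane collagen Col15a1 stood at 0.30 in aged and -3.81 in young cells (interaction -4.11 ± 0.26, adjusted p = 1.15e-10, edgeR). The matrix protein gene Cilp gave -0.16 in aged cells with an interval from -0.91 to 0.58, against -4.76 in young cells (interaction -4.60 ± 0.71, adjusted p = 0.00035, edgeR).

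The protease Adamts15, the cartilage glycoprotein Cnmd and the complement component C7 were alike. Their aged differences were 0.03, 0.01 and 0.05, all with overlapping groups, and their young changes -3.68, -3.22 and -3.15. The interactions were -3.71 ± 0.48, -3.23 ± 0.34 and -3.20 ± 0.65 (adjusted p = 2.53e-05, 7.88e-07 and 0.00814, edgeR). C7 lost its call without young SoftY library 1, at an adjusted p of 0.0738. Of the fixed genes, Ccn2 (1.07 ± 0.23, adjusted p = 0.0132, edgeR) and Pdgfra (-1.0 ± 0.13, adjusted p = 3.3e-05, edgeR) had called interactions. Acta2 was at 0.71 ± 0.19 (adjusted p = 0.0545, edgeR), which misses the threshold.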

How the data were processed

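Per the labels' protocols, each library was made from 20 ng of TRIZOL-extracted RNA with a NEBNext kit for low input. The submitters' processing notes name STAR 2.7.8a and the build mm39. The authors deposited a table of raw counts of 55357 genes in 29 columns, all tied to a sample by library name. The file name points to HTSeq. Not given in the sources used here are its version, the strand mode and the release of the annotation. Precision depends on the library totals of 1192668 to 3275089 counts and on the spread among replicates.

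Tests used edgeR 4.0.16 under R 4.3.3. The 23 cultured libraries in 8 groups shared 1 fit (TMM, filterByExpr by group, quasi-likelihood F test), which left 12841 genes. The contrasts were aged StiffY over SoftY, its interactions with ECM and with cell age, and the 2 comparisons behind them. Benjamini-Hochberg adjustment ran over all genes, and calls used an adjusted p under 0.05. The SE was taken as the size of the log2 fold change divided by the root of F, and 95% intervals use t quantiles. The upper level given for interferon genes with 0 counts stands for 3 counts over the 6 libraries together. Counts of 0 entered the fit and the sums unchanged. CPM values come from this fit, except where a scale of all 29 libraries is named. The fit was tested on simulated data.

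The comparison, the genes and the lists were chosen with earlier results of these data known, and the 4 lists of interferon ligands, receptors, transducers and sensors after the values here had been seen. Named genes were the 12 largest called changes per direction (mean of at least 10 CPM, groups apart), up to 5 called members of each list, at most 2 of the most abundant members of lists with none called, a fixed set of 18 genes, and the 6 largest called interactions per direction. Other genes of the interferon-stimulated and interferon pathway lists were named after their values were seen. Alternatives were other sets of libraries, RLE factors, other filters, DESeq2 1.42.0, a replicate block, library total as a covariate, and leaving out each library. Promoters are RefSeq sequence of GRCm38.p6, matched by symbol; a build other than that of the counts served for these letters only. A few genes of the lists are counted in them and not reported by name here.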

Additional observations from a re-analysis of the deposited data

Results flagged for a closer look

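The results below are differences between groups in the response to stiffness, found by a test of the difference itself (edgeR's quasi-likelihood test of the interaction, Benjamini-Hochberg adjusted). Between matrices in aged cells, the stiffness change was more negative on aged than on young matrix by -1.31 for Htra3, -1.03 for Fgl2 and -0.86 for Apoe on the log2 scale, with 3 libraries in each of 4 groups. Between cell ages on young matrix (young minus aged), it was more positive in young cells for Cmpk2 (3.50), Ifit1 (2.88), Ifit3b (2.87), Ifit3 (2.28), Isg15 (1.81), Iigp1 (1.27) and Igtp (1.13). It was more negative in young cells for Cilp (-4.60), Enpp2 (-4.54), Col15a1 (-4.11), Adamts15 (-3.71), Cnmd (-3.23), C7 (-3.20) and Ccl2 (-0.78). The comparison with young cells rests on 2 SoftY libraries of young cells. Iigp1 lost its call in 9 of 11 fits that left out 1 library, and Isg15 and C7 each in 1 of 11. Igtp and Ccl2 are listed because they were also called in the aged comparison, whose 6 libraries this test shares. Groups of 3 libraries were not examined for outlying samples.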

How the results depend on the processing

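The count of 7 lower genes was 5 to 10 in the other fits of all libraries of the 2 groups and 4 to 6 when 1 library was left out (4 without SoftY library 3, StiffY library 2 or StiffY library 3). Ifit1, Ifit3, Ifit3b and Cmpk2 were called in every fit run. Without a filter on low counts Ccl2 and Igtp had adjusted p = 0.0740 and 0.0552 (edgeR). The 3 genes of the interaction with ECM became 5 over the 12 libraries of cultured aged cells, 23 without a filter (13 higher, 10 lower, over 27788 genes) and 12 by DESeq2, all with the 3 named genes, and stayed at 3 in each fit that left out 1 library. The 169 genes of the interaction with cell age were 105 to 147 when 1 library was left out, with 105 without young SoftY library 1, and the interaction of Iigp1 had an adjusted p of 0.0700 with library total as a covariate. The cytokine list had 0 genes called on the 6 libraries alone. A fit without the 4 libraries of lowest total (none of them in the 2 groups compared), a set chosen after seeing the data, gave 9, 4 and 167 genes for the 3 comparisons. The causes of these shifts were not tested.

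Whether the replicate numbers pair the samples was not settled, and the main fit did not pair them. Same-numbered SoftY and StiffY libraries had deviations correlated weakly, at 0.0974, 0.114 and 0.247. Each of the 3 in both groups correlated best with its own number. With a replicate block the counts were 10 for stiffness in aged cells, 5 for the interaction with ECM and 207 for that with cell age (286 with the block by the number in the library name), and the cytokine list had 2 genes called.

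Depth limits weak genes: at 10 CPM a library of the 6 held 18 to 24 counts.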
